A study of Homo sapiens with 12 samples.

Results

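The genes described here are 44 genes of the lysosome, chosen by gene symbol and found in the deposited count table by their Ensembl identifiers, of 58302 identifiers in all. They comprise 3 transcription factors, 17 acid hydrolases, 3 lumenal activators and carriers, 6 membrane proteins and 15 subunits of the V-ATPase. The rule that lists them uses no measured value, but the members and lists were chosen with earlier results of these data known. RNA-seq counts were sufficient to test 43 of the 44, among 15826 genes tested in all, and m6A peaks on the same genes were taken from 4 peak lists.

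RNA-seq comprised 2 libraries of oral squamous cell carcinoma (OSCC) cells treated with 100 nM rapamycin and 2 libraries of control cells. The labels put both rapamycin libraries in HSC3 and both control libraries in CAL33, which are established human OSCC cell lines, and give no treatment time for RNA-seq. MeRIP-seq covered both cell lines with and without 100 nM rapamycin for 3 days, and there the titles numbered 1 belong to HSC3 and those numbered 2 to CAL33. The rule pairs the RNA-seq libraries by number, so they were compared within numbers, and "number 1" and "number 2" are used below. In the same counts, same-numbered RNA-seq libraries resembled each other (r of log2 CPM across genes 0.966 and 0.956, against 0.761 to 0.811 for the other pairs). If the RNA-seq labels are correct as written, the effect of rapamycin and the difference between the cell lines cannot be told apart. Each number had 1 library per treatment. The p-values of the comparison within numbers thus rest on how far the rapamycin difference varied between number 1 and number 2, pooled over genes. The edgeR fit draws each gene's spread toward a value shared across genes, so a p-value says little about that gene's own spread. *GUSB* (log2 differences of 0.49 in number 1 and 0.56 in number 2) and *CTSB* (0.11 and 1.23) had standard errors of 0.26 and 0.29. No replicate within a number measures how the rapamycin difference varies. No source states that the libraries came from separate cultures. Number 1 and number 2 differed in level for 37.3% of all genes tested (adjusted p under 0.05, edgeR). What part of the spread between the numbers is technical was not tested.

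Lysosomes degrade what endocytosis and autophagy deliver to them. Their hydrolases work in an acid lumen, and the acid is made by the V-ATPase, in which the cytosolic V1 sector splits ATP and the membrane V0 sector carries protons. TFEB and its relatives TFE3 and MITF bind a short E-box in the promoters of many lysosomal genes. The kinase complex mTORC1, which rapamycin inhibits, phosphorylates TFEB and holds it in the cytosol, so the activity of TFEB is set largely by its location rather than by its mRNA. Whether rapamycin changed the phosphorylation or location of TFEB in these cells was not measured.

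Total counts ranged from 18492273 to 23763098 per library, and mitochondrial genes held between 5.71% and 7.94%. The tested members had between 83 counts (*TFEB*) and 40441 counts (*CTSB*) in a library. Of 6 epithelial markers, *CDH1* and *EPCAM* exceeded 150 CPM (counts scaled to a common library size with TMM factors) in each library, whereas the squamous markers set the numbers apart, with *KRT17* at 4.89 and 5.05 CPM in number 1 and at 1346 and 2119 CPM in number 2. The summed level of the 6 markers ran from 547 to 664 CPM in number 1 and from 3179 to 3736 CPM in number 2. *KRT5* and *KRT14* were lower with rapamycin (adjusted p = 6.06e-06 and 0.0327, edgeR), but *KRT14* had 0 counts in both number 1 libraries. *KRT17*, *TP63*, *CDH1* and *EPCAM* did not differ at an adjusted p under 0.05 (edgeR), with log2 fold changes of 0.38, −0.22, 0.08 and −0.19. Of 7 macrophage markers, which would come from cells rich in lysosomes, *PTPRC*, *CD163*, *TYROBP* and *AIF1* had 0 counts in every library, and 6 of 7 stayed under 1 CPM. The other was *CSF1R*, at 15.7 and 20.7 CPM in number 1 and 0.16 and 0.17 CPM in number 2. Of 6 fibroblast markers, *COL1A2*, *COL3A1* and *DCN* had 0 counts in every library, and the sum ranged from 28.5 to 46.7 CPM with rapamycin and from 8.79 to 35.8 CPM in control cells. The part of these markers in the results on lysosomal genes was not tested.

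With rapamycin, the hydrolase mRNAs lay mostly above control and the V-ATPase mRNAs mostly below it, by changes that were small for nearly all genes. Of the 17 hydrolases, 11 (64.7%) were higher within both numbered pairs and 1 was lower, whereas 34.6% of all genes tested were higher in both. Of the 14 tested V-ATPase subunits, 9 (64.3%) were lower within both pairs and 2 were higher, whereas 31.8% of all genes tested were lower in both. The median log2 difference between rapamycin and control was 0.29 over the hydrolases and −0.39 over the V-ATPase subunits, against 0.05 over all genes tested. These counts and medians describe the lists and were not tested as sets.

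Only 1 member, *GAA*, passed the threshold across all genes, as a rise. In the comparison within numbers, 8.15% of all genes passed it, 4.65% as rises (736 genes) and 3.50% as falls (554 genes), or 805 rises and 360 falls with upper-quartile normalization. The share of members called, 2.33%, was thus below that of all genes. At an unadjusted p under 0.05, 10 members (23.3%) differed, near the 23.6% of all genes, 4 of them higher (13.1% of all genes) and 6 lower (10.5% of all genes). The members higher at that level were *GAA*, *CTSB*, *CTSD* and *GRN*, and those lower were *GLA*, *ATP6V0D1*, *ATP6V1A*, *ATP6V1B2*, *ATP6V1C1* and *ATP6V1D*. Without the number as a block, 0 of 15826 genes passed in edgeR, *GAA* included (log2 fold change 0.95, adjusted p = 0.9997), and 446 genes (2.82%) had an unadjusted p under 0.05, 0 of them members. DESeq2 with the block called 1 member, *GAA*, and 818 of the 15826 genes. It gave no adjusted p for 3682 of the 15826.

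**Figure D1:**
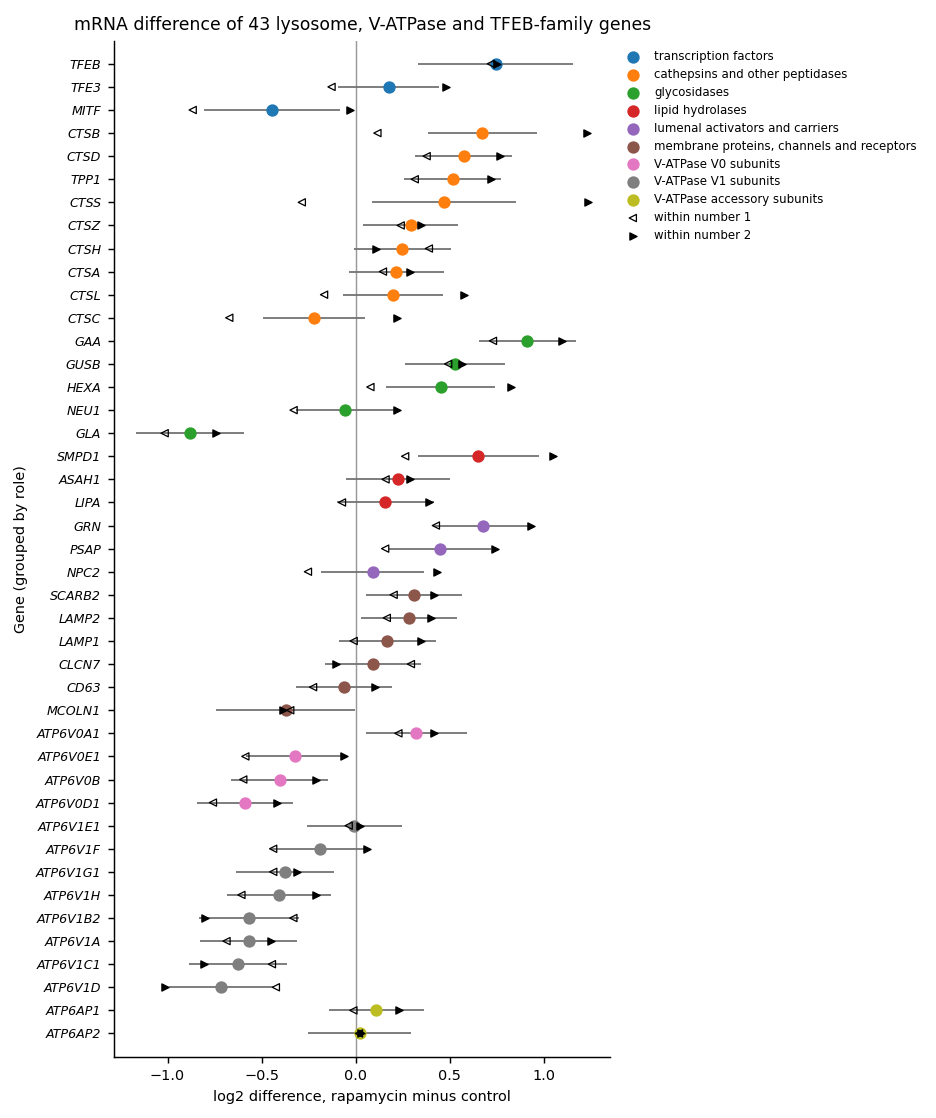
Log2 difference between rapamycin and control (horizontal axis) for the 43 tested members, grouped by role (colours). Large points with bars give the fitted value ± its standard error, and open and filled triangles give the difference within number 1 and within number 2. Hydrolases lie mostly to the right of 0 and V-ATPase V0 and V1 subunits mostly to the left, from −0.88 (*GLA*) to 0.91 (*GAA*).

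*TFEB*, the factor best known for driving lysosomal genes, had 6.36 and 16.2 CPM in rapamycin libraries 1 and 2, against 3.83 and 9.59 CPM in control libraries 1 and 2. Both numbers were higher with rapamycin, by similar amounts, but number 2 exceeded number 1 in each treatment, so the groups overlapped. The difference of 0.74 on the log2 scale (standard error 0.41) did not pass the threshold (edgeR, quasi-likelihood, adjusted p = 0.279). *TFE3*, a relative with the same DNA-binding preference, had 66.8 and 86.3 CPM with rapamycin and 73.1 and 61.9 CPM in control cells. It was lower with rapamycin in number 1 and higher in number 2, and the fit gave a log2 difference of 0.17 ± 0.27 (standard error, adjusted p = 0.742 in edgeR). *MITF*, the family member known from melanocytes, had 7.78 and 20.5 CPM with rapamycin and 14.3 and 20.9 CPM in control cells. The difference was found in number 1 with almost none in number 2, and the log2 fold change of −0.44 (standard error 0.36, adjusted p = 0.486) did not pass.

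The E-box that these factors bind has the core CACGTG, and the form most typical of lysosomal genes is the palindrome TCACGTGA. The longer CLEAR element adds G before and C after that palindrome. Promoters (250 bases before to 50 bases after the gene start, RefSeq, GRCh38.p14) were given for 33 of the 44 members. Each motif reads the same on both strands, and a count of the shorter includes the longer. CACGTG occurred in 11 of these 33 genes (33.3%), against 12.3% of the 11397 tested genes in the same table and 8.77% of all 27305 genes in it. TCACGTGA occurred in 6 of 33 (18.2%), against 2.16% of the tested genes and 1.18% of all genes. The CLEAR element occurred in 3 of 33 (9.09%), against 0.842% and 0.421%. Counted by promoter, 11, 6 and 3 of the 49 member promoters held these motifs, against 7.26%, 0.98% and 0.353% of all 35116 promoters. These motifs are known from lysosomal genes, so a higher share among genes listed as lysosomal follows from the list. A match to these letters describes a sequence and is not evidence of binding in these cells.

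The sites with TCACGTGA are shown because the genes that carry them include both the member that rose and V-ATPase subunits that lay lower. Each line is a window of 30 bases, 5′ to 3′ on the strand of the gene, with the palindrome in capitals.
*GAA* (chr17:80101493-80101522, plus strand): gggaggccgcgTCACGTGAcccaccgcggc
*GAA* (chr17:80101538-80101567, plus strand): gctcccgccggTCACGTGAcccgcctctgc
*CTSA* (chr20:45891298-45891327, plus strand): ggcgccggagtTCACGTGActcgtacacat
*LAMP1* (chr13:113297199-113297228, plus strand): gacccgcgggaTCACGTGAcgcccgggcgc
*LAMP1* (chr13:113297226-113297255, plus strand): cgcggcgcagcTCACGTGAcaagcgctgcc
*MCOLN1* (chr19:7522571-7522600, plus strand): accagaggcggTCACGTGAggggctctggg
*MCOLN1* (chr19:7522598-7522627, plus strand): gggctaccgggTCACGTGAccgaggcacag
*ATP6V1G1* (chr9:114587699-114587728, plus strand): acgctgtgcggTCACGTGAcaacgggggcg
*ATP6V0D1* (chr16:67481199-67481228, minus strand): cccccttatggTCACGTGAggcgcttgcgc

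Counted from the first base of CACGTG to the gene start, these 9 sites lay between 76 bases and 1 base upstream. The 3 genes with the CLEAR element were *GAA*, which has it at both sites, *ATP6V1G1* and *MCOLN1*. The 6 genes with TCACGTGA did not share a direction with rapamycin. *GAA*, *CTSA* and *LAMP1* had log2 fold changes of 0.91, 0.22 and 0.17, and *MCOLN1*, *ATP6V1G1* and *ATP6V0D1* had −0.37, −0.38 and −0.59, and of these *GAA* alone passed the threshold. The median log2 fold change was −0.06 over the 11 members with CACGTG and 0.17 over the 21 tested members whose given promoters lacked it. Both sets held genes of either sign (5 positive and 6 negative with the motif, 15 and 6 without), and the difference between these medians was not tested.

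**Figure D2:**
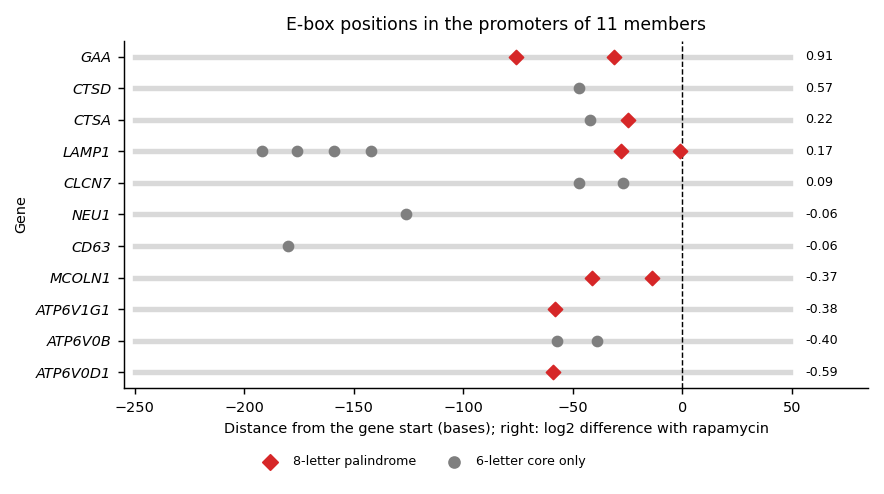
Position of each CACGTG in the promoters of the 11 members that have it (horizontal axis, bases from the gene start, dashed line at 0), with red diamonds where it is part of TCACGTGA and grey circles elsewhere. The number at the right is the log2 difference with rapamycin, by which genes are ordered, and genes with diamonds lie at both ends, from 0.91 for *GAA* to −0.59 for *ATP6V0D1*.

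*GAA* (ENSG00000171298, chromosome 17, 80101581 to 80119881 in RefSeq GRCh38.p14) encodes acid alpha-glucosidase, which breaks down glycogen in the lysosome and is deficient in Pompe disease. It had 166 and 289 CPM with rapamycin against 100.3 and 135 CPM in control cells, in the order of the numbers. Both rapamycin libraries lay above both control libraries, with means of 228 ± 86.8 CPM and 118 ± 24.8 CPM (SD, n = 2 each). Each SD spans number 1 and number 2, so it includes the difference in level between them. The level was 1.88-fold higher with rapamycin within numbers (log2 fold change 0.91, standard error 0.26, adjusted p = 0.0287, edgeR). Within number 1 the log2 difference was 0.73 and within number 2 it was 1.09.

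The other glycosidases did not move as a group. *GLA*, alpha-galactosidase A, the enzyme deficient in Fabry disease, had 37.4 and 23.2 CPM with rapamycin and 75.8 and 38.8 CPM in control cells. The groups did not overlap, and the log2 fold change of −0.88 (standard error 0.28, adjusted p = 0.0536 from edgeR) fell just outside the threshold, which it passed without a filter on low counts (adjusted p = 0.0337 from edgeR). It was the only hydrolase that was lower within both numbers. *GUSB*, beta-glucuronidase, had 99.8 and 62.2 CPM with rapamycin and 71.0 and 42.1 CPM in control cells, a log2 fold change of 0.53 with an adjusted p of 0.225 from edgeR. *HEXA*, the alpha subunit of beta-hexosaminidase, was at 46.5 and 59.9 CPM against 44.1 and 33.8 CPM, so its groups did not overlap, although number 1 differed by only 0.08 on the log2 scale (adjusted p = 0.360 from edgeR). *NEU1*, sialidase, had log2 differences of −0.33 in number 1 and 0.22 in number 2.

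Among the cathepsins and the peptidase *TPP1*, 6 of 9 (66.7%) were higher within both numbers and 0 were lower in both, against 34.6% and 31.8% of all genes. In edgeR 0 passed the threshold, which 8.15% of all genes passed, and 0 passed in DESeq2, which called 818 of 15826 genes. At an unadjusted p under 0.05 in edgeR, 2 (22.2%, *CTSB* and *CTSD*) differed, near the 23.6% of all genes. *CTSB*, a cysteine protease, had 571 and 2218 CPM with rapamycin and 527 and 948 CPM in control cells. Nearly all of the difference lay in number 2, where the level was 2.34 times that of control, against 1.08 times in number 1 (log2 fold change 0.67, standard error 0.29, adjusted p = 0.158 from edgeR). *CTSD*, the major aspartic protease of lysosomes, had 129 and 503 CPM with rapamycin and 99.7 and 296 CPM in control cells (log2 fold change 0.57, adjusted p = 0.171 from edgeR). *TPP1*, a peptidase that trims tripeptides from protein ends, had 317 and 142 CPM with rapamycin and 255 and 86.1 CPM in control cells (log2 fold change 0.51, adjusted p = 0.224 from edgeR). *CTSD* and *TPP1* thus were both higher with rapamycin within each number, yet number 2 held more *CTSD* and less *TPP1* than number 1. *CTSZ*, a carboxypeptidase, was the only member of this group whose rapamycin libraries, at 221 and 264 CPM, both exceeded the control libraries, at 188 and 208 CPM (adjusted p = 0.514 from edgeR). *CTSC*, *CTSL* and *CTSS* were lower in number 1 and higher in number 2.

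The lipid hydrolases and their helpers were at or above control in most libraries. *SMPD1*, acid sphingomyelinase, had 39.3 and 21.2 CPM with rapamycin and 32.8 and 10.2 CPM in control cells (log2 fold change 0.65, standard error 0.32, adjusted p = 0.219 from edgeR). *ASAH1*, acid ceramidase, and *LIPA*, which hydrolyses cholesteryl esters, had log2 fold changes of 0.22 and 0.16. *GRN*, the precursor of the lysosomal granulins, had 657 and 995 CPM with rapamycin and 489 and 522 CPM in control cells, so the groups did not overlap. The difference of 0.68 on the log2 scale (standard error 0.26) did not pass in edgeR (adjusted p = 0.109). *PSAP*, the precursor of the saposins that activate sphingolipid hydrolases, also had both rapamycin libraries (1455 and 1928 CPM) above both control libraries (1306 and 1155 CPM), with an adjusted p of 0.322 from edgeR. *NPC2*, a lumenal cholesterol carrier, differed in direction between the numbers.

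**Figure D3:**
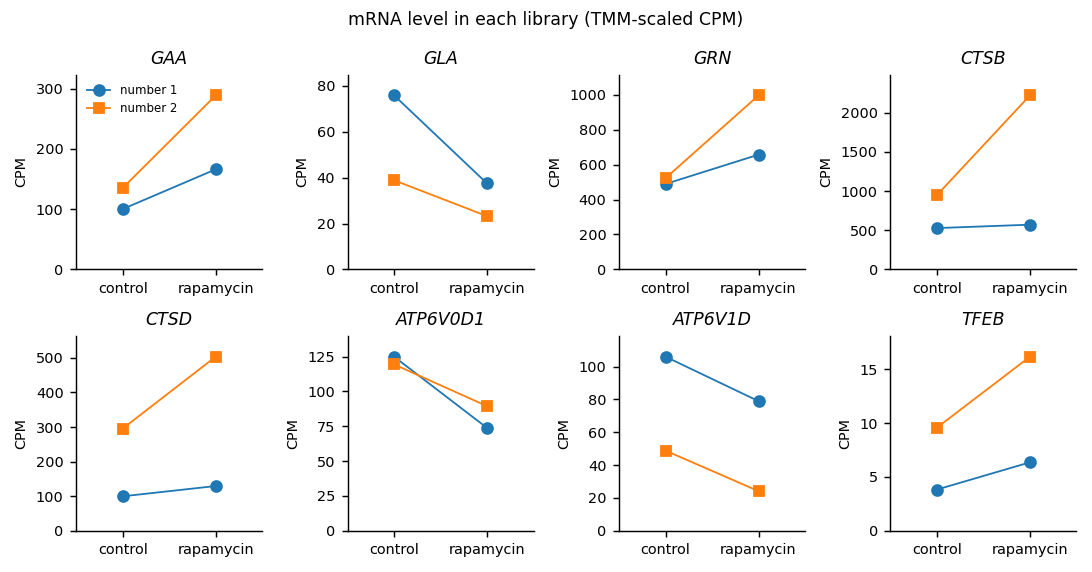
Level in CPM (vertical axis, from 0, scaled by TMM) in control and rapamycin libraries for 8 members, with a line joining the libraries of each number. *GAA*, *GRN*, *CTSB*, *CTSD* and *TFEB* have lines that slope upward in both numbers and *GLA*, *ATP6V0D1* and *ATP6V1D* have lines that slope downward, while the distance between the lines shows how far the numbers differ, as for *CTSD* at 99.7 and 296 CPM in control cells.

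The membrane proteins of the lysosome lay close to control. *LAMP1*, the most used lysosomal marker, had 333 and 374 CPM with rapamycin and 336 and 294 CPM in control cells (log2 fold change 0.17, standard error 0.26). *LAMP2*, which is needed for chaperone-mediated autophagy, had 168 and 156 CPM with rapamycin against 149.8 and 118 CPM, without overlap but with an adjusted p of 0.535 from edgeR. *SCARB2*, the receptor that carries glucocerebrosidase to lysosomes, was higher within both numbers with a log2 fold change of 0.31. The calcium channel *MCOLN1*, through which lysosomal calcium activates TFEB, had the largest difference of this group in either direction, with 15.3 and 7.62 CPM with rapamycin and 19.4 and 10.01 CPM in control cells (log2 fold change −0.37, standard error 0.37, adjusted p = 0.581 from edgeR). Of the 6 membrane genes, 0 passed the threshold in edgeR or DESeq2, and 0 had an unadjusted p under 0.05 in edgeR. The shares of all genes in edgeR were 8.15% and 23.6%, and DESeq2 called 818 of 15826 genes.

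Of the 12 tested subunits of V0 and V1, 11 had a negative log2 fold change. Of these 12, 9 (75.0%) were lower within both numbers, against 31.8% of all genes tested, and 5 (41.7%) were lower at an unadjusted p under 0.05, against 10.5%. In edgeR and in DESeq2, 0 passed the threshold, which 8.15% of all genes passed in edgeR and 818 of 15826 in DESeq2. *ATP6V0D1*, which joins the central stalk to the V0 ring, had 73.8 and 89.4 CPM with rapamycin and 125 and 119 CPM in control cells. The groups were well apart, at −0.59 on the log2 scale (standard error 0.26), with an adjusted p of 0.156 from edgeR. *ATP6V0B*, a ring subunit, was likewise lower in both rapamycin libraries, at 70.9 and 74.9 CPM against 107 and 86.6 CPM (log2 fold change −0.40, adjusted p = 0.356 from edgeR). *ATP6V0A1*, the a1 subunit through which protons pass, was the exception, at 59.1 and 81.0 CPM against 50.5 and 60.7 CPM (log2 fold change 0.32, adjusted p = 0.493 from edgeR).

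In the V1 sector, *ATP6V1A*, the subunit that binds and splits ATP, had 30.3 and 114 CPM with rapamycin and 48.9 and 156 CPM in control cells (log2 fold change −0.57, adjusted p = 0.176 from edgeR). *ATP6V1B2*, its partner in the ATP-splitting head, had 70.9 and 44.6 CPM against 89.3 and 77.8 CPM (log2 fold change −0.57, adjusted p = 0.195 from edgeR). *ATP6V1C1*, which has a part in joining V1 to V0, had 79.5 and 56.7 CPM against 108 and 99.0 CPM (log2 fold change −0.63, adjusted p = 0.135 from edgeR). For *ATP6V1B2* and *ATP6V1C1* the rapamycin libraries were both under the control libraries, while for *ATP6V1A* the distance between the numbers exceeded that between the treatments. *ATP6V1D*, in the central rotor, had the largest difference among the subunits, with 78.9 and 24.1 CPM with rapamycin and 106 and 48.8 CPM in control cells (log2 fold change −0.72, standard error 0.27, adjusted p = 0.104 from edgeR). *ATP6V1E1*, of the peripheral stalk, was level in all libraries, between 141 and 145 CPM. The accessory subunits were also level, with log2 fold changes of 0.11 for *ATP6AP1* (126 and 145 CPM with rapamycin, 127 and 124 CPM in control cells) and 0.02 for *ATP6AP2*. *ATP6V0C*, the ring subunit that carries protons, had 2 and 4 counts with rapamycin and 0 and 0 in control cells and was not tested. How reads shared with other genes or strands were counted is not given, so these counts may not measure its expression.

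The signs of the group medians held under each scaling and filter tried. These settings moved the median over all genes by only −0.03 to 0.08, so they could hardly reverse those signs. The median over the hydrolases ran from 0.25 to 0.37 and the median over the V-ATPase subunits from −0.41 to −0.32. The 2 numbers did not contribute equally: the median over the hydrolases was 0.14 within number 1 and 0.56 within number 2, and that over the V-ATPase subunits was −0.44 and −0.21. Over all 43 members the median was −0.04 within number 1 and 0.29 within number 2. Across the 43 members the differences within number 1 and within number 2 correlated with Pearson's r of 0.67, against 0.49 across all 15826 genes, and genes are not independent replicates. The members had at least 83 counts in each library, while all genes include some with 0 counts in a library, such as *CTSF*. These values of r thus compare genes of unlike depth. Of the members, 13 (30.2%) took opposite directions in the numbers, against 33.6% of all genes tested. Rapamycin libraries did not overlap control libraries for 6 members above (14.0%, against 15.0% of all genes) and for 5 members below (11.6%, against 16.5% of all genes), shares near or under the background.

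More members differed between the numbers than with rapamycin. In the same fit, 19 of 43 members (44.2%) differed between number 2 and number 1 at the threshold, against 37.3% of all genes tested. Of these, 10 were higher in number 2 (17.0% of all genes) and 9 were lower (20.2% of all genes), while DESeq2 gave 6 higher and 9 lower. The shares of all genes in DESeq2 were not counted for this contrast. The hydrolases made up 13 of the 19, with 6 higher and 7 lower in number 2. *CTSC*, which activates serine proteases, had 36.1 and 57.5 CPM in the number 1 libraries and 217 and 186 CPM in the number 2 libraries with and without rapamycin, so it was 4.41-fold higher in number 2 (log2 fold change 2.14, standard error 0.28, adjusted p = 8.65e-07 from edgeR). *CTSH*, an aminopeptidase, and *CTSD* were 3.73-fold and 3.40-fold higher in number 2. In the other direction, *TPP1*, *SMPD1*, *NEU1* and *CTSL* had levels in number 2 between 0.389 and 0.423 times those in number 1. The V-ATPase subunits differed less often, 3 of 14, although *ATP6V1A* was 3.45-fold higher and *ATP6V1D* stood at 0.376 times the level of number 1. The difference in how often hydrolases and V-ATPase subunits differed was not tested.

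**Figure D4:**
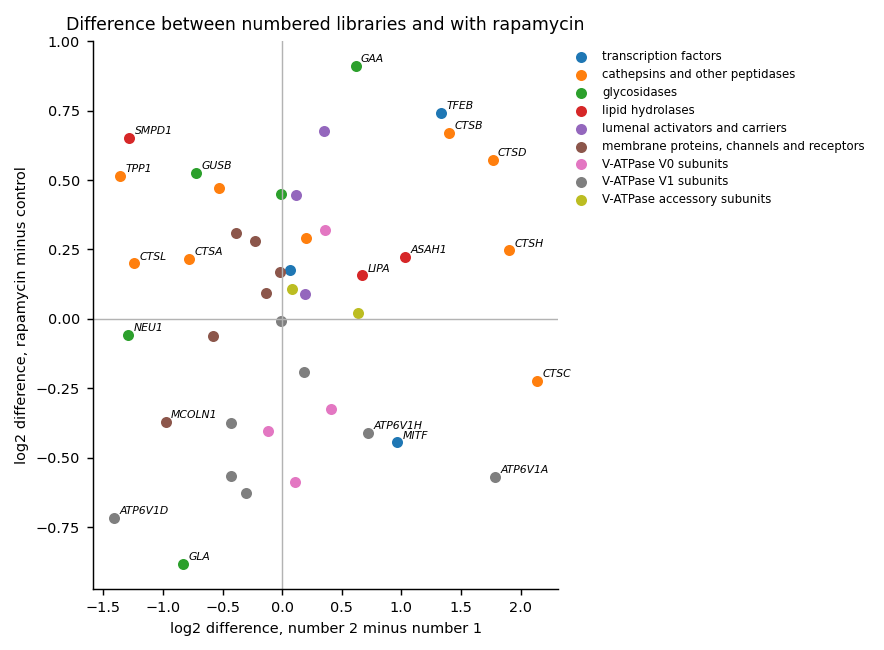
Log2 difference between number 2 and number 1 (horizontal axis) against log2 difference between rapamycin and control (vertical axis) for the 43 tested members, coloured by role. Genes past the threshold in either contrast are named. Points spread from −1.41 (*ATP6V1D*) to 2.14 (*CTSC*) across the numbers and from −0.88 to 0.91 with rapamycin, and V-ATPase subunits of the V0 and V1 sectors fill the lower part.

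The other genes of the pathway were read from 4 further lists. Of 31 other lysosomal enzymes, all tested, 19 (61.3%) were higher within both numbers and 3 were lower, and in 14 (45.2%) both rapamycin libraries lay above both control libraries, against 34.6%, 31.8% and 15.0% of all genes. The median log2 fold change was 0.41. The enzyme past the threshold was *ARSA*, arylsulfatase A, with 54.3 and 79.1 CPM with rapamycin and 32.0 and 38.4 CPM in control cells (log2 fold change 0.90, standard error 0.28, adjusted p = 0.0437 from edgeR). A further 8 were higher at an unadjusted p under 0.05 in edgeR, 29.0% of the list with *ARSA* included, against 13.1% of all genes. Among 29 tested membrane and sorting proteins, *ABCA2*, a lipid transporter, rose from 53.7 and 114 CPM to 90.3 and 272 CPM (log2 fold change 1.004, adjusted p = 0.0177 from edgeR), and the list as a whole was balanced, with 9 higher and 10 lower in both numbers. Among 18 tested V-ATPase subunits and assembly factors outside the 15 subunits above, *ROGDI*, which associates with the V-ATPase, rose from 10.5 and 44.2 CPM to 21.7 and 77.3 CPM (log2 fold change 0.92, adjusted p = 0.0485 from edgeR, but 0.0657 from DESeq2). In this list 10 genes were higher and 4 were lower in both numbers, the reverse of the V0 and V1 subunits described above. In these 4 lists 3 genes (3.16%) rose past the threshold in edgeR with the block, a share below the 4.65% of all genes. In the other direction 0 genes fell past it, against 3.50% of all genes. At an unadjusted p under 0.05 in that fit, 16 were higher (16.8%, against 13.1% of all genes) and 6 were lower (6.32%, against 10.5%). Without the block the calls of *ARSA*, *ABCA2* and *ROGDI* were lost (adjusted p = 0.9997 each from edgeR).

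The regulators of TFEB lay mostly below control. Of 17 tested, 10 (58.8%) were lower within both numbers, against 31.8% of all genes tested, and 1 was higher, against 34.6%. In edgeR and in DESeq2, 0 passed the threshold, which 8.15% of all genes passed in edgeR and 818 of 15826 in DESeq2. At an unadjusted p under 0.05 in edgeR, 3 (17.6%) differed, against 23.6% of all genes. The gene that was higher was *RRAGD*, a Rag GTPase that brings TFEB to the lysosome, with 1.47 and 27.0 CPM with rapamycin and 0.65 and 9.34 CPM in control cells (log2 fold change 1.396, standard error 0.45, adjusted p = 0.0508 from edgeR). *FLCN*, which activates that GTPase, had 20.7 and 13.4 CPM with rapamycin and 34.8 and 24.5 CPM in control cells, without overlap (log2 fold change −0.81, adjusted p = 0.114 from edgeR). Its partners *FNIP1* and *FNIP2* had log2 fold changes of −0.60 and −0.92 (adjusted p = 0.242 and 0.0783 from edgeR). *RRAGD* and *FLCN*, both known as targets of TFEB, thus lay on opposite sides of control.

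MeRIP-seq pulls down RNA fragments with an antibody against m6A and sequences them beside the input RNA. There was 1 pair of immunoprecipitated and input libraries for each cell line and treatment, so m6A values have no replicate within a cell line. No test between treatments was run on them, and the depth behind the peaks is unknown. Fold enrichment, the ratio of immunoprecipitated RNA to input, was taken as deposited. Few of the lysosomal transcripts had a peak. A peak was listed for 6 of the 43 tested members in HSC3 control cells (14.0%, against 17.6% of all genes tested), 2 in HSC3 rapamycin cells (4.65%, against 17.5%), 4 in CAL33 control cells (9.30%, against 16.1%) and 3 in CAL33 rapamycin cells (6.98%, against 14.2%). The share was below that of all genes in each list. In all, 11 members had at least 1 peak, 4 of them in 2 lists and 0 in more, and 33 had none. The 11 held 7 of the 17 hydrolases and 0 of the 15 V-ATPase subunits. Among these hydrolases, *CTSC* and *NEU1* had only a peak with a false discovery rate above 0.05. The share of all genes with a peak in any list was not counted, so these counts have no background.

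The 18 peaks were 120 to 269 bp long. By the deposited annotation, 11 lay in a 3′ UTR, 5 in coding sequence, 1 in a 5′ UTR and 1 in an exon without further class. Over all peaks of the 4 lists, 36.3% lay in a 3′ UTR and 41.6% in coding sequence, and the difference in placement was not tested. *SMPD1* had the most peaks, all in its coding sequence on the plus strand of chromosome 11 (hg38) and all in HSC3. In HSC3 control cells a single peak (6391496 to 6391615) had a fold enrichment of 11.2 and a false discovery rate of 0.245, above 0.05. In HSC3 rapamycin cells 3 peaks were listed, at 6391705 to 6391914 and 6393922 to 6394102 with a fold enrichment of 54.7 each, and at 6394371 to 6394550 with 287, which stood at percentile 96.5 of the peaks of that list. These 3 had false discovery rates of 2.51e-11 and lower. The nearest control and rapamycin peaks of *SMPD1* were 89 bp apart and shared no base, and in RNA-seq number 1, the number that marks HSC3 in MeRIP-seq, *SMPD1* mRNA was at 39.3 CPM with rapamycin and 32.8 CPM in control cells.

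*CTSB* and *CTSS* had peaks in both cell lines, in their 3′ UTRs. The *CTSB* peaks on the minus strand of chromosome 8 ran from 11844351 to 11844530 and from 11844890 to 11845070 in HSC3 control cells, with fold enrichments of 11.7 and 2.76, and from 11844800 to 11844920 in CAL33 rapamycin cells, with 1.83. The last of these overlapped the peak of HSC3 control cells with a fold enrichment of 2.76 by 31 bp, the only bases that peaks of a member shared between lists. The *CTSS* peaks, on chromosome 1, were listed in control cells only, with a fold enrichment of 72.9 in HSC3 and 29.8 in CAL33, and lay 2277 bp apart. *CLCN7*, a chloride and proton exchanger of the lysosomal membrane, had a 3′ UTR peak in each HSC3 list. The control peak was 19.6-fold enriched and the rapamycin peak, 119 bp away, 13.7-fold, with a false discovery rate of 0.330.

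The other peaks were listed once each. In HSC3 control cells these were a 3′ UTR peak of *TPP1* with a fold enrichment of 63.1 and a coding peak of *GRN* with 16.1. In CAL33 control cells they were 3′ UTR peaks of *CTSC* (17.0), *CTSD* (15.9) and *TFE3* (12.8). In CAL33 rapamycin cells they were a peak of *CD63*, a tetraspanin of late endosomes, in the 5′ UTR with a fold enrichment of 139, and an exonic peak of *NEU1* with 10.7. The false discovery rate exceeded 0.05 for the peaks of *CTSC* (0.204) and *NEU1* (0.508). *GAA*, the member that rose with rapamycin, had no peak in any list. Of the 7 member peaks in rapamycin lists, 0 of 4 in HSC3 and 0 of 3 in CAL33 overlapped a control peak of the same cell line, against 28.4% and 29.9% of all rapamycin peaks in those lists.

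**Figure D5:**
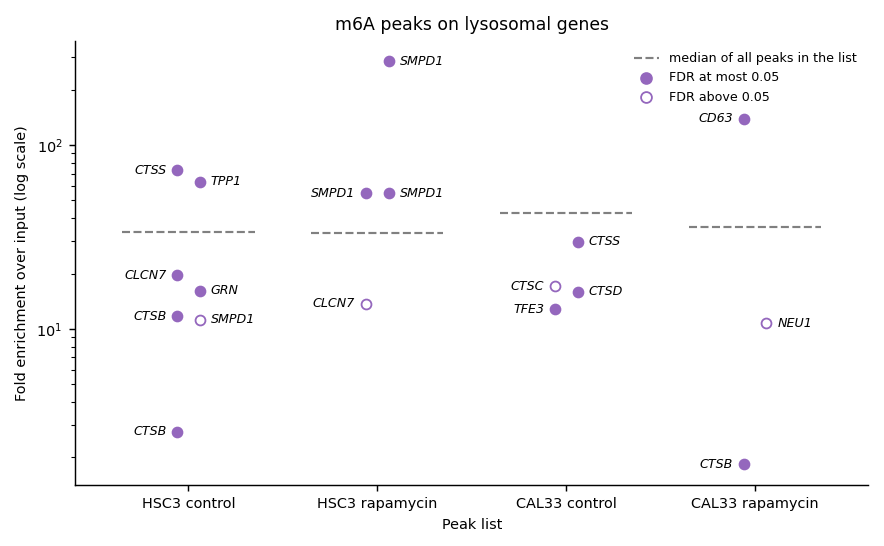
Fold enrichment over input (vertical axis, log scale) of each of the 18 m6A peaks on members, by peak list (horizontal axis), with open circles for a false discovery rate above 0.05 and dashed lines at the median of all peaks of the list. The peaks of *SMPD1* in HSC3 rapamycin cells (54.7 to 287) and of *CD63* in CAL33 rapamycin cells (139) stand above the medians of 33.3 and 35.9, and most others lie below the median of their list.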

How the data were processed

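The RNA-seq table deposited by the authors holds raw counts per Ensembl gene, without normalization. For MeRIP-seq, the authors deposited 1 list of peaks for each immunoprecipitated library and its input, giving a fold enrichment (the ratio of the former to the latter) and a log10 false discovery rate that is treated as a score. The submitters' processing notes name cutadapt 2.5, HISAT2 2.1.0, featureCounts 1.6.3, HOMER 4.10.4 and hg38 without roles. The annotation, the peak caller and whether counting used strand are not given in the sources used here.

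The counts were fitted with edgeR 4.0.16 (R 4.3.3) after filterByExpr (15826 genes) and TMM, with the replicate number as a block. The robust quasi-likelihood test was used, with p-values adjusted by Benjamini-Hochberg over all genes at 0.05. Each standard error was derived from that test, as the absolute log2 fold change divided by the square root of its F statistic. Differences within a number are on log2 CPM with a prior count of 2. The block was used because the rule pairs the libraries by number and the MeRIP-seq labels give each number 1 cell line. The RNA-seq labels do not follow that numbering, and the likeness of same-numbered libraries was read from the same counts. The difference between numbers correlated between treatments (r = 0.901 across genes). The alternatives were no block, DESeq2 1.42.0, upper-quartile normalization, other filters on low counts, each number alone, stricter peaks and a stricter overlap. The fit was tested on simulated counts. Peaks overlapped when they shared at least 1 bp on the same strand, and positions are counted from 1. No genome was used, so no peak sequence is shown.

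The members and lists were chosen with earlier results of these data known. Values in every library are given for the 3 transcription factors, members past the threshold, the member with the largest difference in each role group and, from each further list, up to 3 rises and 3 falls past the threshold. No member had a peak in 3 lists. The other named genes, *RRAGD*, *FLCN* and members at an unadjusted p under 0.05 among them, were chosen after their values were seen.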

Additional observations from a re-analysis of the deposited data

Results flagged for a closer look

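The difference between rapamycin and control took opposite directions within number 1 and within number 2 for 13 members. The difference between the numbers was not tested for any of them, since each number has 1 library per treatment. On the log2 scale, the members lower in number 1 and higher in number 2 were *CTSS* (−0.287 and 1.233), *CTSC* (−0.672 and 0.219), *CTSL* (−0.169 and 0.572), *NEU1* (−0.330 and 0.218), *LIPA* (−0.074 and 0.387) and *NPC2* (−0.254 and 0.431). *TFE3* (−0.129 and 0.478), *CD63* (−0.227 and 0.103), *LAMP1* (−0.012 and 0.347), *ATP6V1F* (−0.439 and 0.059), *ATP6AP1* (−0.013 and 0.230) and *ATP6V1E1* (−0.038 and 0.023) did the same, and *CLCN7* (0.293 and −0.108) went the other way. Opposite directions were found in 33.6% of all genes tested. Of the 13, *CTSC*, *CTSL*, *NEU1* and *LIPA* also differed in level between the numbers at the threshold.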

How the results depend on the processing

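Without the replicate block, the count of members that were higher changed from 1 to 0, that of members with an unadjusted p under 0.05 from 10 to 0, that of all genes from 736 higher and 554 lower to 0 and 0, and that of pathway genes higher from 3 to 0. The log2 fold change of *GAA* was then 0.95 with an adjusted p of 0.9997 from edgeR, its call being lost, as were those of *ARSA*, *ABCA2* and *ROGDI* (adjusted p = 0.9997 each), and *CTSC* changed sign to 0.0525. The block lowered the common dispersion from 0.636 to 0.061. DESeq2 gave 416 genes higher, and 6 members higher in number 2 in place of 10. Upper-quartile normalization gave 360 genes lower. Without a filter on low counts, 1 member (*GLA*, log2 fold change −0.92, adjusted p = 0.0337 from edgeR) and 1 pathway gene (*CLN6*) were lower, where 0 were before. *ROGDI* lost its call with DESeq2 (adjusted p = 0.0657) and without a filter (adjusted p = 0.0524, edgeR), and *RRAGD* gained one with upper-quartile normalization (adjusted p = 0.0461, edgeR) and with at least 10 counts in every library (adjusted p = 0.0389, edgeR). *GAA* kept its call in the other 4 alternatives with a test, with an adjusted p from 0.0119 to 0.0232 (edgeR or DESeq2). Members near 0 changed sign: *ATP6V1E1* (0.00631 with DESeq2, 0.0185 with at least 10 counts in every library, 0.0675 with upper-quartile normalization), *NEU1* (0.0171) and *CD63* (0.0125) with upper-quartile normalization, and *ATP6AP2* (−0.0154) without a filter. The median over members ran from −0.04 to 0.29 with each number left out. With a false discovery rate of at most 0.05, 1 member in place of 2 had a peak in HSC3 rapamycin cells. The other counts of peaks stayed within 1.5 times. The least precise of the members by depth was *TFEB*, with 83 counts in its lowest library.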
